A study of Mus musculus with 3 samples.

Results

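The genes of the large ribosomal subunit were followed through the polysome gradient of cultured mouse lymph node stromal cells. Members were taken by name: array probes whose gene name was Rpl and a number, with an optional letter a, l, x or y, or Rplp0, Rplp1, Rplp2 or Arbp, the older name of Rplp0. This gave 49 names for 48 genes, out of 27744 gene names on the array, with 78 probes. Of these genes 26 had 1 probe and 22 had 2 or more. All 48 are current mouse gene symbols, and they lie on 18 chromosomes. The paralogs Rpl10l and Rpl39l matched no probe under this rule.

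Stromal cells of BALB/c mice (LNSCs, the scaffold cells of a lymph node) received either siRNA against Eif4g3 or control siRNA, at 400 pmol per 10 cm dish in a lipid reagent, had their medium changed at 24 h and were harvested after 48 h. The targeted gene, Eif4g3, makes eIF4GII, on which the cap-binding complex assembles before a ribosome is loaded onto an mRNA. Plates of 1 siRNA were pooled, 7 per siRNA, before the lysate was separated on a 10% to 60% sucrose gradient. The top fraction holds mRNAs with no or few ribosomes, light polysomes hold mRNAs with few ribosomes, and heavy polysomes hold mRNAs with many. Each fraction has 1 array that carries both siRNAs, Eif4g3 siRNA always in the Cy5 and control siRNA always in the Cy3 channel, and dyes were not swapped. Each siRNA is therefore 1 pool of plates, and no value below has replicate error or a p-value. From each sample 200 ng of RNA was labelled, so a ratio is relative to the RNA of that fraction. The dye, the pool of plates and the siRNA cannot be told apart, nor can the array and the fraction.

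The large subunit joins the small subunit on an mRNA and forms the peptide bonds of the growing protein. Its proteins surround ribosomal RNA, and its acidic stalk, made of P0, P1 and P2 on a base that includes L12, recruits the translation factors. The mRNAs of nearly all these proteins begin with an unbroken stretch of C and T, the 5′ terminal oligopyrimidine or TOP motif. Cells move TOP mRNAs between polysomes and the ribosome-free pool as a group when growth signals change.

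RefSeq promoters of the GRCm38.p6 build were given for 36 of the 48 genes, as 43 promoters. Sequences are shown for 10 genes whose signals are described below. Capitals mark the longest unbroken run of C and T within 50 bases of the annotated start on either side, and each window is 30 bases on the coding strand. A TOP motif stands at the very start of the mRNA, whereas these runs begin between position -20 (Rpl5) and position 41 (Rpl41) from the annotated start, so a run shown here need not be a TOP motif.
Rplp2, chr7:141447640-141447669, plus strand: tcagcgTCTTCCTTTCgccgccggacgccg
Rpl12, chr2:32961732-32961761, plus strand: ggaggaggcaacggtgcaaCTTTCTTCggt
Rpl5, chr5:107900502-107900531, plus strand: cagccaCTCTTTCTCacgtcgcttgcgtgc
Rpl4, chr9:64173407-64173436, plus strand: gcgtggCCTTCTCCTCTCCCCgtcatggtg
Rpl41, chr10:128549119-128549148, minus strand: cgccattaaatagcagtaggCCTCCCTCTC
Rpl39, chrX:37085173-37085202, minus strand: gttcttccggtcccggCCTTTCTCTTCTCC
Rpl37a, chr1:72711277-72711306, plus strand: attgcgTCCCTTCCTCTTCggacttgggct
Rpl38, chr11:114668572-114668601, plus strand: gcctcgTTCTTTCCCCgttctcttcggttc
Rpl7a, chr2:26910787-26910816, plus strand: ccacaaTTCCCTCTTCTTTCTTTCTCCagc
Rpl36al, chr12:69184018-69184047, minus strand: tctgttcgTCCCTTTCCTgttcggcgcgtg

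The longest run had a median of 11 bases over the members' promoters, against 7 over all 32851 promoters. A run of 8 or more bases stood in 83.7% of the members' promoters, against 35.7% of all. A run of 5 or more bases covered the annotated start itself in 27.9% of the members' promoters, against 10.1% of all. The letters CTTTCC, chosen after the sequences were seen and part of such runs, stood on the coding strand of 41.9% of the members' promoters and 4.69% of all. On the opposite strand they stood in 0 of 43 and in 4.47% of all. Of 29 small-subunit promoters 13.8% held them on the coding strand, while runs of 8 or more stood in 75.9% and the median run was 10 bases. The length of the run and the siRNA ratio of the top fraction had a Spearman's rho of -0.24 over 36 genes. With the light ratio it was 0.34 over 35 genes and with the heavy ratio 0.17 over 36, all descriptions over genes that share an array.

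Of 41174 gene probes, 34.8% on the top array, 50.2% on the light array and 51.6% on the heavy array were well above background in both channels. Of the members' 78 probes 96.2%, 97.4% and 98.7% were, so all but Rpl3l on the light array had a value on every array. The siRNA target Eif4g3 had log2 ratios of -0.43 ± 0.16 in the top fraction, -1.06 ± 0.16 in light and -1.77 ± 0.19 in heavy polysomes (spot error), lower with Eif4g3 siRNA on each array. Of 12 fibroblastic stroma markers 9 to 11 were above background in either channel of an array, and their median ratios were -0.11 in top (9 genes), 0.03 in light (9 genes) and -0.43 in heavy (10 genes). Smooth muscle markers had median ratios of 0.15, 0.33 and 0.15. Of 7 leukocyte markers 0 were above background in top, 3 in each channel in light, and 3 with Eif4g3 siRNA and 4 with control siRNA in heavy. Of 6 endothelial markers 0 were in top, 3 with Eif4g3 siRNA and 2 with control siRNA in light, and 2 and 4 in heavy. Of these 2 lists, Ptprc, Cd79a, Itgam and Pecam1 were above background on no array, and each of the other markers was in at least 1 channel. Among 6 epithelial markers, 2 were above background with Eif4g3 siRNA in top and 0 with control siRNA. In light these counts were 3 and 1, and in heavy 1 and 3. Smooth muscle markers were above background in 4 or 5 of 5 cases in each channel of each array. The part of these cell types in the results was not tested. In such pooled cells, fewer cells of a type and less RNA per cell cannot be told apart.

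In the top fraction, large-subunit mRNAs as a group had more signal with Eif4g3 siRNA than with control siRNA. A value is the log2 of the Eif4g3 siRNA signal over the control siRNA signal of the same array, averaged over a gene's probes, and ± gives the scanner software's error of the spot, which is not replicate error. The median over 48 genes was 0.53, against 0.00 over the 10943 genes measured there. Of the 48 genes 46 lay above 0, where 50.4% of all measured genes did. The ratio exceeded 2 spot errors above 0 in 32 members (7.04% of all genes). Past 2-fold were 5 members, all higher with Eif4g3 siRNA (0.429% of all genes), among them Rplp1, Rpl12, Rpl41 and Rpl5. Most genes on this array were dim, and the processing draws dim ratios towards 0. Of 355 genes outside both subunits and at least as bright as the members' lower quartile, 20 were past 2-fold higher. With the scanner software's own ratio the median was 0.35 and 0 members passed 2-fold. With an offset of 0 in the background correction the median was 0.43 and 1 member passed.

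In light polysomes the same genes lay near the other genes. Their median was 0.10, against 0.01 over 14094 genes, and 31 of 47 were above 0 (52.6% of all genes). No member passed 2-fold in either direction (0.688% of all). The highest were Rpl7a at 0.45 ± 0.12, Rpl29 at 0.40 ± 0.10, Rpl3 at 0.36 ± 0.21 and Rpl14 at 0.32 ± 0.21. The lowest were Rpl36 at -0.31 ± 0.15, Rpl22 at -0.21 ± 0.15, Rpl18 at -0.20 ± 0.20 and Rpl39 at -0.20 ± 0.21. The light polysome median depends on the normalization: without the intensity-dependent (loess) step it was 0.53.

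In heavy polysomes the group lay above the other genes again, by less than in the top fraction. The median was 0.22, against -0.01 over 14403 genes, and 41 of 48 were above 0 (48.3% of all genes). No member passed 2-fold (0.812% of all), and 19 exceeded 2 spot errors above 0 (9.64% of all). The highest were Rpl39 at 0.76 ± 0.21, Rplp1 at 0.74 ± 0.21, Rpl37a at 0.74 ± 0.21 and Rpl38 at 0.67 ± 0.21. The lowest were Rpl4 at -0.38 ± 0.21, Rpl3 at -0.25 ± 0.20, Rpl10 at -0.10 ± 0.14 and Rpl15 at -0.08 ± 0.20.

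**Figure D1:**
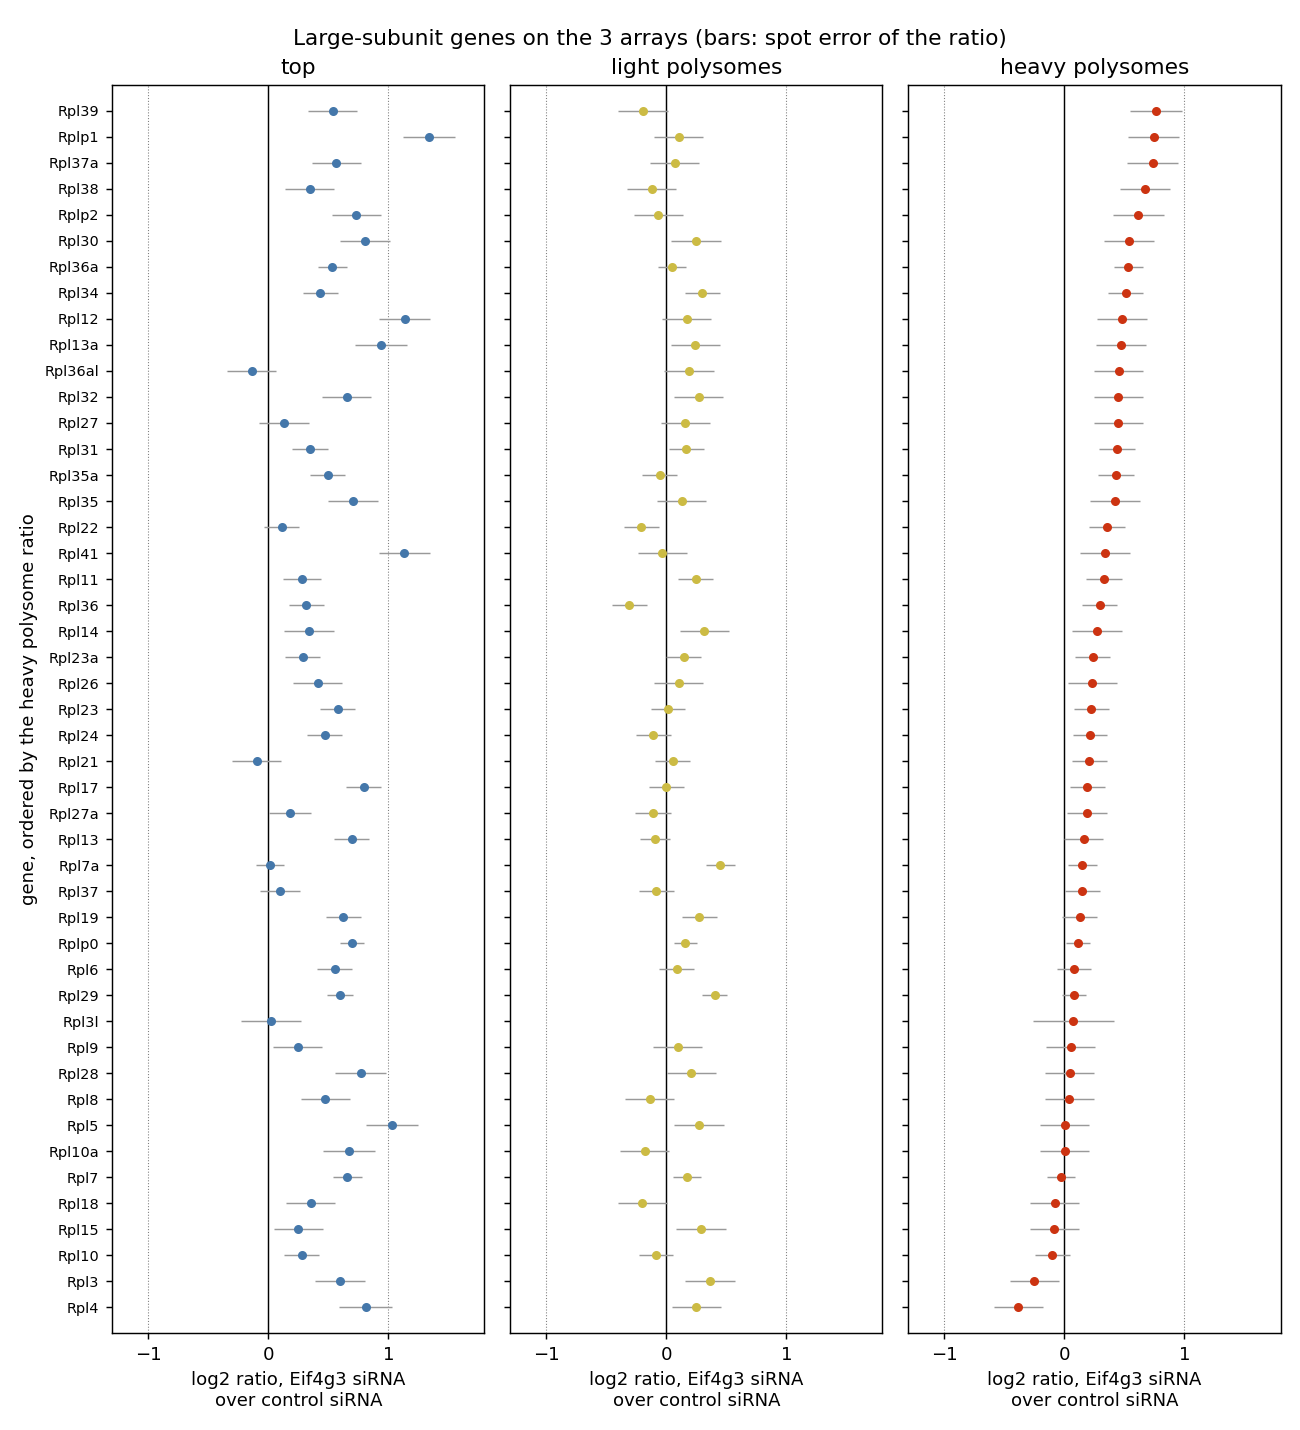
Log2 of the Eif4g3 siRNA signal over the control siRNA signal (x axis) for 47 large-subunit genes (y axis, ordered by the heavy polysome ratio), on the top, light and heavy arrays. Points are gene values, bars the spot error, and dotted lines 2-fold; 45 of these 47 genes lie right of 0 in the top fraction, 31 of 46 in light and 41 of 47 in heavy polysomes.

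Many members are among the brightest genes on these arrays, and on 2 of the 3 arrays brighter members had higher ratios. Among the 100 brightest genes were 19 members and 16 small-subunit genes on the top array, 12 and 14 on the light, and 8 and 11 on the heavy array. Over the members, probe signal and ratio had a Spearman's rho of 0.44 in top (48 genes), -0.14 in light (47 genes) and 0.47 in heavy (48 genes), a description over genes that share an array. Other genes at least as bright as the members' lower quartile had median ratios of 0.05 in top (355 genes), 0.00 in light (557 genes) and 0.08 in heavy (573 genes). Past 2-fold higher were 20 of these other genes in top, 4 in light and 5 in heavy, beside 5, 0 and 0 of the members. The 36 members in that range had medians of 0.57 in top and 0.23 in heavy.

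The 4 stalk genes were all higher with Eif4g3 siRNA in the top fraction. The signals below are normalized array intensities on a linear scale and compare the siRNAs and fractions of 1 gene, not genes with each other. Rplp1, an acidic stalk protein that contacts translation factors, had 243467, 101818 and 142686 in the top, light and heavy fractions of Eif4g3 siRNA cells, against 96146, 94783 and 85257 in those of control siRNA cells. Its ratios were 1.34 ± 0.21, 0.10 ± 0.20 and 0.74 ± 0.21, which is 2.53-fold in the top fraction and 1.67-fold in heavy polysomes. The channels lay apart in top and heavy and close together in light.

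Rplp2, the partner of P1 in the stalk dimers, had 216893, 140246 and 148916 with Eif4g3 siRNA, against 130525, 147007 and 97080 with control siRNA. Its ratios were 0.73 ± 0.20 in top, -0.07 ± 0.20 in light and 0.62 ± 0.21 in heavy, the same order of fractions as Rplp1. Rpl12, at the stalk base, had 198705, 85823 and 88426 with Eif4g3 siRNA, against 90460, 76335 and 63453 with control siRNA. Its ratios were 1.14 ± 0.21, 0.17 ± 0.20 and 0.48 ± 0.21.

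Rplp0, which anchors P1 and P2, had 51739, 27620 and 25714 with Eif4g3 siRNA, against 31894, 24738 and 23810 with control siRNA. Its ratios were 0.70 ± 0.10, 0.16 ± 0.10 and 0.11 ± 0.10, so it stayed near 0 in heavy polysomes where P1 and P2 did not. Its 3 probes disagreed in heavy polysomes, from -0.19 to 0.41, and ran from 0.47 to 0.89 in top. The lowest of them is printed on the array 10 times, and those spots had an SD of 0.03 in top (8 spots kept) and 0.12 in heavy.

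**Figure D2:**
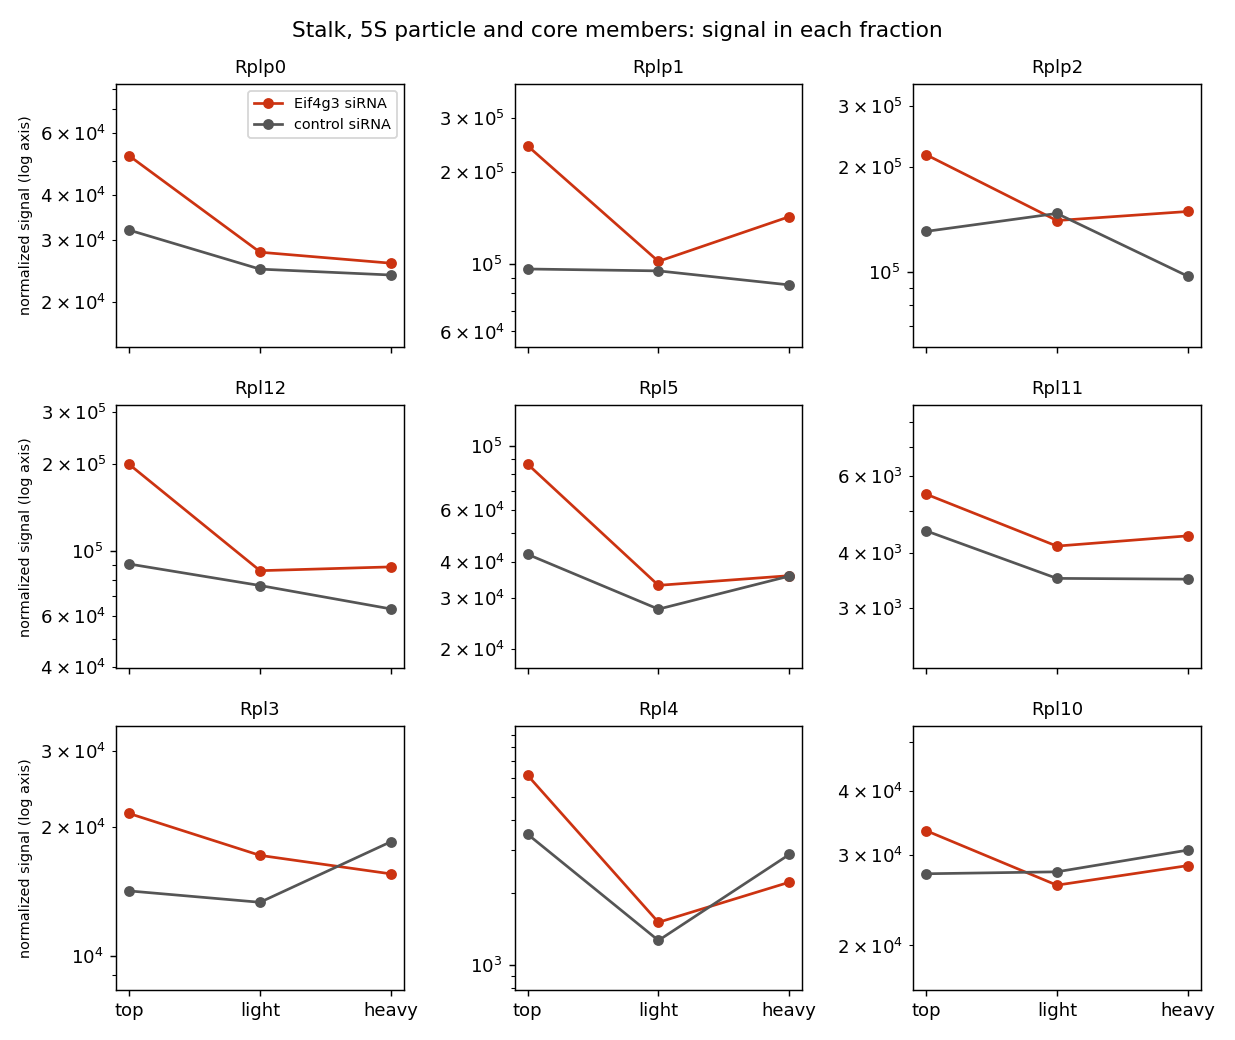
Normalized signal (y axis, log scale) in the top, light and heavy fractions (x axis) of Eif4g3 siRNA cells (red) and control siRNA cells (grey) for the stalk genes, the Rpl5 and Rpl11 pair and Rpl3, Rpl4 and Rpl10, 1 point per channel and array. In the top fraction the red point lies above the grey one in all 9 genes, and in heavy polysomes it lies below in Rpl3, Rpl4 and Rpl10.

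Rpl5 and Rpl11 bind the small 5S ribosomal RNA together, and outside the ribosome they inhibit Mdm2, the ligase that removes p53. They differed from each other. Rpl5 had 86549, 33111 and 35744 in the top, light and heavy fractions with Eif4g3 siRNA, against 42340, 27419 and 35624 with control siRNA. Its ratios were 1.03 ± 0.21, 0.27 ± 0.21 and 0.00 ± 0.20. Rpl11 had 5461, 4154 and 4384 with Eif4g3 siRNA, against 4502, 3505 and 3490 with control siRNA. Its ratios were 0.28 ± 0.16, 0.25 ± 0.15 and 0.33 ± 0.15, which is nearly flat over the fractions. They average a bright probe, at 0.44, 0.29 and 0.49, and a dim one, at 0.12, 0.20 and 0.16. The signals of Rpl11 likewise average both probes, on the log scale.

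Rpl4, Rpl3 and Rpl10 had the 3 lowest ratios in heavy polysomes. Rpl4, which lines the exit tunnel, had 6128, 1505 and 2207 with Eif4g3 siRNA, against 3491, 1265 and 2876 with control siRNA. Its ratios were 0.81 ± 0.22 in top, 0.25 ± 0.21 in light and -0.38 ± 0.21 in heavy. Rpl3, which reaches towards the peptidyl transferase centre, had 21484, 17150 and 15528 with Eif4g3 siRNA, against 14166, 13326 and 18453 with control siRNA. Its ratios were 0.60 ± 0.21, 0.36 ± 0.21 and -0.25 ± 0.20. For both genes the Eif4g3 siRNA signal was the higher one in top and light and the lower one in heavy, and each rests on 1 probe.

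Rpl10, known from yeast as one of the last proteins to join the subunit, had 33528, 26233 and 28643 with Eif4g3 siRNA, against 27614, 27855 and 30711 with control siRNA. Its ratios of 0.28 ± 0.14, -0.09 ± 0.14 and -0.10 ± 0.14 lay close to 0 beyond the top fraction.

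The heavy ratio minus the top ratio compares a gene's ratio between 2 arrays, 1 at each end of the gradient. Its median over the members was -0.26, against 0.00 over 10722 genes, so most members had a lower ratio in heavy polysomes than in the top fraction. It was below 0 in 34 of 48 members (50.1% of all genes). Past 2-fold lower were 3 members (0.699% of all), among them Rpl4 at -1.19 ± 0.30 and Rpl5 at -1.03 ± 0.30. Rpl3 at -0.85 ± 0.29, Rpl41 at -0.80 ± 0.29 and Rpl28 at -0.73 ± 0.29 followed. Rpl4 kept its 2-fold difference under all 8 alternatives tried, from -1.35 to -1.19, while Rpl5 kept it under 4 of 8. Each of these genes has 1 probe, so the 4 alternatives that filter or choose probes or genes could not change its value. Those are the 4 that Rpl5 kept, and it fell short of 2-fold under each of the others. Of the others, the deposited table repeats the software's ratio. Over the 21 members with 2 or more probes the median was -0.065, a setting added after the data were seen.

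No member passed 2-fold in the other direction (0.811% of all). The highest was Rpl36al at 0.59 ± 0.29, followed by Rpl21 at 0.44 ± 0.29, Rpl38 at 0.33 ± 0.29, Rpl27 at 0.32 ± 0.29, Rpl22 at 0.24 ± 0.21 and Rpl39 at 0.23 ± 0.30. Only Rpl36al among the 48 members exceeded 2 spot errors above 0 (8.43% of all genes), against 15 members below (7.31% of all genes).

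Heavy ratios minus light ratios had a median of 0.19, against -0.02 over 13688 genes, with 0 members past 2-fold (0.731% of all genes in either direction). Without loess this median was -0.24, the reverse sign. Light ratios minus top ratios had a median of -0.49, against 0.00 over 10683 genes, and 3 members were past 2-fold lower (0.739% of all). Among them were Rplp1 at -1.24 and Rpl41 at -1.17. Without loess this difference had a median of -0.064 and by the software's ratio -0.32, and under either 0 members passed 2-fold.

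Over the 47 members with all 3 values, the top ratio was the highest in 33, which is 70.2%, against 33.8% of the 10657 genes measured on all arrays. The light ratio was the lowest in 30, or 63.8%, against 30.8% of all. In 12 the heavy ratio was the highest, 25.5% against 35.1% of all, and 25 had a ratio above 0 on every array, 53.2% against 20.0% of all. This order depends on the normalization. Without loess the members' medians were 0.50, 0.53 and 0.24 in top, light and heavy, the top ratio was the highest in 22 members (26.2% of all genes), the light ratio was the lowest in 7 (25.4% of all), and 34 had a ratio above 0 on every array (15.8% of all). The differences share arrays with each other and are given side by side for that reason.

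Rpl41, the shortest protein of the subunit, had 241731, 151128 and 29090 with Eif4g3 siRNA, against 110169, 154891 and 23006 with control siRNA. Its ratios were 1.13 ± 0.21, -0.04 ± 0.20 and 0.34 ± 0.21, and in both channels its heavy signal was far below its top and light signals.

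The paralogs stood at the low end of the top fraction. Rpl36al, a paralog of Rpl36a, had 6550, 10978 and 11250 with Eif4g3 siRNA, against 7212, 9635 and 8230 with control siRNA. Its ratios were -0.14 ± 0.20, 0.19 ± 0.20 and 0.45 ± 0.21, increasing from top to heavy. Rpl36a itself had 0.53 ± 0.12, 0.05 ± 0.12 and 0.53 ± 0.12, higher than its paralog in the top fraction and close to it in heavy polysomes. Rpl3l, known as a striated-muscle form of Rpl3, was dim, with signals of 261 in top and 77.2 in heavy with Eif4g3 siRNA, against 257 and 73.4 with control siRNA. Its ratios were 0.02 ± 0.25 and 0.07 ± 0.34. Rpl21 at -0.10 ± 0.20 and Rpl7a at 0.01 ± 0.12 were the other members near 0 in the top fraction.

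Probes of 1 gene did not always give 1 answer. Over the genes with 2 or more measured probes, the median gap between the lowest and the highest probe was 0.15 in top, 0.10 in light and 0.22 in heavy. In Rpl22, which also binds RNA outside the ribosome, the probes stood at -0.29 and 0.51 in top and at 0.04 and 0.67 in heavy. In Rpl31 they stood at 0.07 and 0.62 in top and at 0.09 and 0.78 in heavy. Probes lay on opposite sides of 0 in 3 of 21 genes in top, 7 of 22 in light and 5 of 22 in heavy. Ribosomal protein genes have many near-identical processed pseudogenes, and whether their transcripts or copies add to a probe's signal was not tested.

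The heavy polysome ratio followed the number in the protein's name, an ordering chosen after the values were seen. The numbers come from the position of the proteins on gels and run roughly from the larger to the smaller proteins. Members numbered 3 to 11 had a median heavy ratio of 0.00, with 7 of 11 above 0. Members 12 to 21 had 0.18, with 7 of 10 above 0. Members 22 to 30 had 0.23 and members 31 to 41 had 0.44, with 10 of 10 and 12 of 12 above 0. The background of heavy ratios above 0 was 48.3% of all genes.

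Over 45 numbered members Spearman's rho of number and heavy ratio was 0.69, and with probe signal held constant on ranks it was 0.66. Under the alternatives it ranged from 0.53 without loess to 0.69. The top ratio had no such order, at -0.08 over 45 members, and the light ratio had -0.27 over 44. Points share 1 array, so these are descriptions without a test.

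The placement of members between light and heavy polysomes was ordered by number in both siRNA channels. In Eif4g3 siRNA cells the log2 of heavy over light signal had medians of 0.26, 0.05, -0.06 and -0.16 in the 4 number ranges, from low to high numbers. In control siRNA cells these medians were 0.38, -0.08, -0.21 and -0.67. Low-numbered members thus had relatively more signal in heavy and high-numbered members in light polysomes, over a narrower range of medians with Eif4g3 siRNA. For the same probes, the gap between the siRNAs here is the heavy ratio minus the light ratio, so the narrower range is not a separate observation. The 2 channels also used unlike probes for some genes. Rpl21 had 1.29 with Eif4g3 siRNA from 1 probe and 0.46 with control siRNA from 2. Spearman's rho of number and heavy over light was -0.46 with Eif4g3 siRNA and -0.68 with control siRNA, both over 44 members. The heavy ratio and these signals share the heavy array, so 1 channel of 1 array enters both. Some small-subunit genes went the same way in control siRNA cells. Rps29, Rps28 and Rps27 had heavy over light at -2.40, -1.35 and -1.20, and Rps3 and Rps6 at 0.22 and 0.14. Others did not, such as Rps2 at -0.32 and Rps9 at -0.26, and no correlation with number was computed for that subunit.

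Rpl39, Rpl37a and Rpl38 had some of the highest ratios in heavy polysomes. Rpl39, a short protein inside the exit tunnel, had 103752, 56380 and 43417 with Eif4g3 siRNA, against 71579, 64546 and 25578 with control siRNA. Rpl37a, a zinc-binding protein, had 210271, 168875 and 175892 with Eif4g3 siRNA, against 142089, 160890 and 105655 with control siRNA. Rpl38, known in mice for a tissue-specific role in translating Hox mRNAs, had 132548, 127524 and 120281 with Eif4g3 siRNA, against 104426, 138840 and 75509 with control siRNA. In all 3 the control signal was lowest in heavy polysomes, and the Eif4g3 siRNA signal was above it there.

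**Figure D3:**
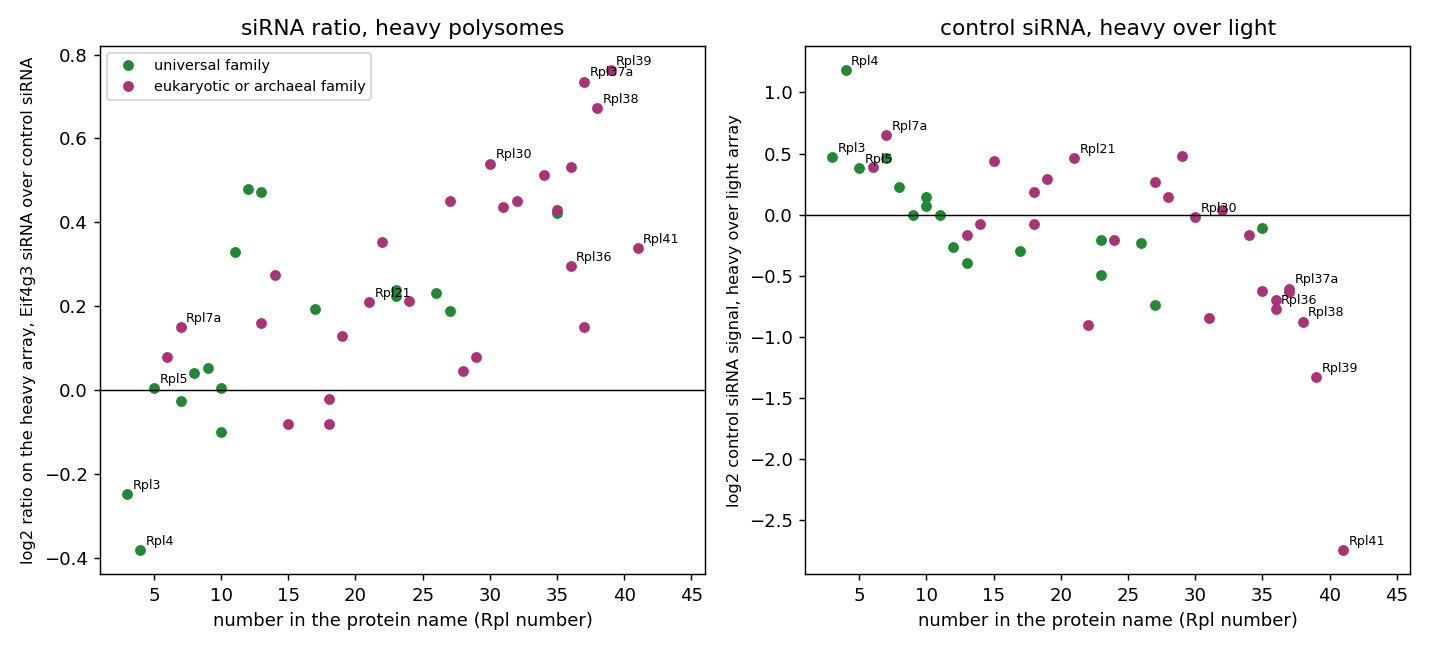
Left, the log2 siRNA ratio on the heavy array, Eif4g3 over control (y axis), against the number in the protein name (x axis); right, the log2 of heavy over light signal in control siRNA cells against the same number. Points are members, coloured by family and without paralogs; ratios go up with the number on the left (Spearman's rho 0.68 over 43) and signals go down on the right (-0.68 over 43).

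In control siRNA cells alone, the members had less signal in heavy polysomes than in the top fraction, relative to each array's distribution of signals. The median log2 of heavy over top was -0.46, against -0.11 over 11158 genes, with 15 members past 2-fold lower (21.2% of all genes) and 0 past 2-fold higher (14.5% of all). The lowest were Rpl41 at -2.26, Rpl21 at -1.92, Rpl3l at -1.81 and Rpl35a at -1.75. The highest were Rpl15 at 0.53, Rpl8 at 0.44, Rpl7a at 0.39 and Rpl3 at 0.38. The value of Rpl7a averages 3 probes that ran from -0.95 to 1.56, so its sign is not settled. Rpl15, Rpl8 and Rpl3 have 1 probe each. This level depends on how arrays are scaled to each other. The median was -1.10 with 75th percentile scaling, against 0.09 over all genes. With the scanner software's processed signal it was -2.40, against -0.39 over all genes.

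Heavy over light had a median of -0.11 in control siRNA cells, against 0.03 over 14055 genes. Past 2-fold were Rpl4, higher in heavy at 1.18 (3.38% of all genes), and Rpl41 and Rpl39, lower in heavy at -2.75 and -1.34 (4.92% of all). Light over top had a median of -0.37, against -0.04 over 11077 genes, with 5 members past 2-fold lower (11.3% of all genes). With 75th percentile scaling it was -0.72, against 0.29 over all genes, with 18 members past 2-fold lower and 1 higher. With the processed signal it was -2.03, against -0.20 over all genes, with 41 lower. The shares of all genes past 2-fold in these scalings were not computed, so these counts have no background. In the scaling that gave the median of -0.37, Rpl21 was the lowest member for light over top, at -3.04. This value and its -1.92 for heavy over top rest on 1 of its 2 probes. The other probe was dim and left out, with log2 control signals of 7.09, 7.19 and 6.99 in top, light and heavy.

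Proteins shared with bacterial ribosomes and those shared only with archaea or found only in eukaryotes had their largest gap between medians in heavy polysomes. The 18 genes of the universal family had median ratios of 0.63, 0.14 and 0.15 in top, light and heavy. The 28 genes of the eukaryotic or archaeal family had 0.51, 0.06 and 0.32. Heavy minus top was below 0 in 16 of 18 universal genes, with a median of -0.45, and in 18 of 28 of the other family, with a median of -0.09. Over all measured genes 50.1% were below 0. Name numbers and families overlap, since low numbers are mostly universal.

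Other parts of the translation machinery were set beside the large subunit. The 33 small-subunit genes had medians of 0.48, 0.08 and 0.36 in top, light and heavy. Above 0 were 32 of 33, 21 of 33 and 31 of 33 (50.4%, 52.6% and 48.3% of all genes). Rpsa, the protein also known as the laminin receptor, had the highest top ratio at 1.69 ± 0.19, with 0.01 ± 0.15 in heavy. Rps27l, an S27 paralog induced by p53, had -0.28 ± 0.21 in top and 0.62 ± 0.21 in heavy, the direction of Rpl36al. Of related genes that the name rule missed, Rpl22l1, a paralog of Rpl22, had a top ratio of 0.11 ± 0.20 and Rpl7l1, a paralog of Rpl7, had -0.09 ± 0.17.

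Of 15 other genes with TOP mRNAs, 13 were above 0 in the top fraction (50.4% of all genes). The medians of the 15 were 0.52, 0.09 and 0.01 in top, light and heavy. Heavy minus top was past 2-fold lower in 3 of them (0.699% of all genes). The elongation factor Eef2 had -0.75 ± 0.13 in heavy and 0.52 ± 0.13 in top, a difference of -1.27 ± 0.18. The poly(A)-binding protein Pabpc1 had 0.01 ± 0.20 in heavy and 1.22 ± 0.22 in top, a difference of -1.20 ± 0.30. The elongation factor Eef1a1 had -0.17 ± 0.15 in heavy and 0.85 ± 0.15 in top, and it is named here because it completes the 3.

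Factors that assemble or export the large subunit lay mostly below 0 in heavy polysomes, where its proteins lay mostly above. Their medians were 0.09 in top (34 genes), 0.06 in light and -0.20 in heavy (35 genes each), and 29 of 35 were below 0 in heavy (51.7% of all genes). Pa2g4, which binds pre-ribosomes, had 0.32 ± 0.21 in top and -0.58 ± 0.15 in heavy. Large-subunit proteins of the mitochondrial ribosome lay on the other side of 0 in the top fraction, with medians of -0.24, -0.06 and 0.04 over 46 genes and 39 of 46 below 0 in top (49.6% of all genes). Mrpl3 and Mrpl41, both mitochondrial ribosome proteins, had -1.06 ± 0.17 and -1.06 ± 0.23 there. These groups differ from the members in brightness too, and none of the differences between lists was tested.

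**Figure D4:**
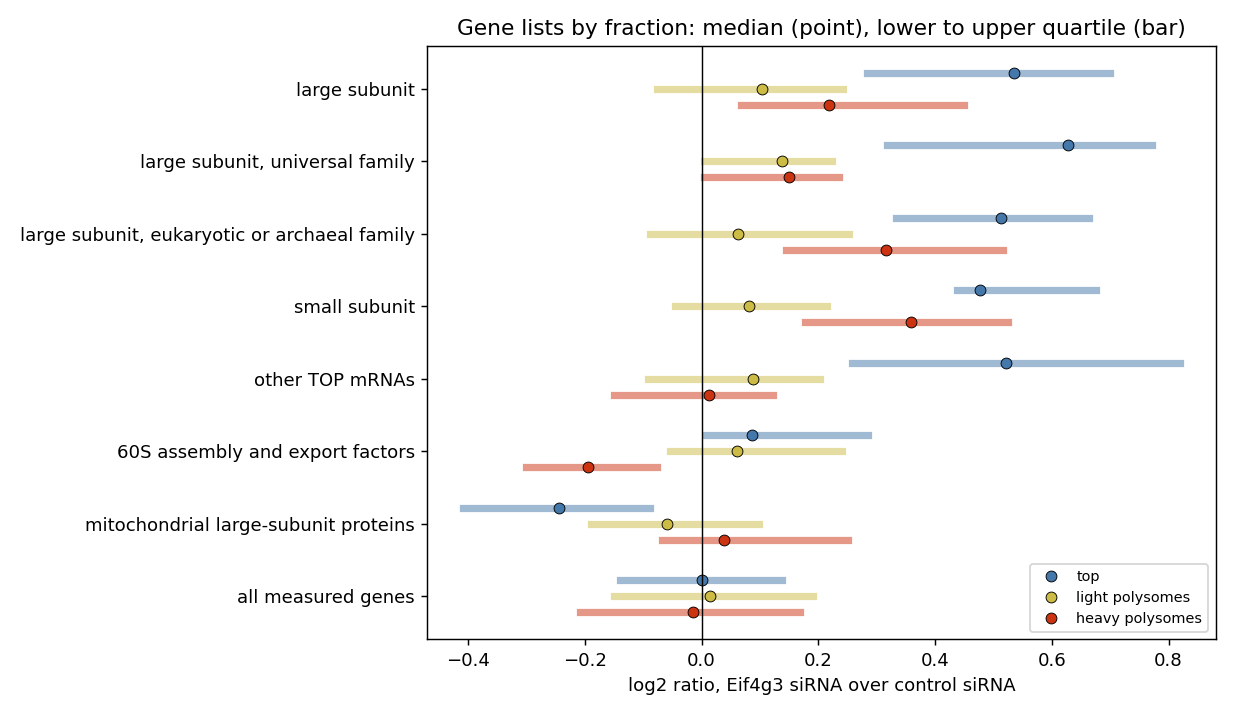
Median log2 siRNA ratio, Eif4g3 over control (points, x axis), with lower to upper quartile (bars) for each gene list (y axis) in the top, light and heavy fractions. Both ribosomal subunits have medians of 0.48 to 0.53 in the top fraction, against 0.00 for all measured genes and -0.24 for mitochondrial large-subunit proteins.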

How the data were processed

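Per the file headers, the deposited scanner files come from Agilent Feature Extraction 10.5.1.1 and give each spot's linear intensity in both channels. A log10 ratio of Cy5 over Cy3 and its error stand beside it, per the file headers. The log2 ratios of the authors' deposited value table differed from that ratio by at most 3.53e-06 on measured probes. Further steps behind the table are unknown: the sources used here do not give them. Its column medians were -0.09, -0.01 and 0.22 for the top, light and heavy arrays.

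Ratios were computed with limma 3.58.1 in R 4.3.3 from mean signals and median local backgrounds, by normexp with an offset of 50 and loess with control spots at weight 0. Outlier spots were left out (220 in top, 170 in light, 183 in heavy), and no spot was saturated. With this offset, dim spots have ratios closer to 0. The upper quartile of background-subtracted signal was 40.5 (control siRNA) and 39.6 (Eif4g3 siRNA) on the top array, below the offset. It was 288 and 686 on the light array, and 1078 and 367 on the heavy array. A probe counted as measured when well above background in both channels, and measured probes of a gene were averaged. Ratio differences between arrays used probes measured on both. Control-channel differences used probes well above background in the control channel on both arrays, whatever the other channel. Signals were set between arrays by Aquantile, and a gene's signals used probes measured on all 3 arrays, or on both for Rpl3l. The spot error was computed by the software for its own ratio and was not rescaled. A gene was called at 2-fold, a log2 of 1 or -1. Repeated spots had a median SD of 0.05 in top, 0.05 in light and 0.09 in heavy. With 1 array per fraction no test was run, and the number of arrays limits the precision. The 3 arrays shared 1 slide and scan.

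Members, gene lists and the rule for named genes (stalk, 5S-binding and core members, paralogs, and the highest and lowest values of each comparison and list) were chosen with earlier results of these data known. The steps that give the ratios of probes, normexp and loess, were tested on simulated arrays with equal numbers of raised and lowered probes. The scaling between arrays, the averaging over a gene's probes and a joint shift of the brightest genes were not covered. The alternatives were the software's ratio, the deposited table, no loess, an offset of 0, no background filter, bright probes, the brightest probe, genes measured on all 3 arrays, and other scalings of the control channel. Single values of some genes are not reported here.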

Additional observations from a re-analysis of the deposited data

Results flagged for a closer look

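Ratios of Eif4g3 siRNA over control siRNA had opposite signs in 2 fractions, each beyond 1 spot error from 0, in 4 members, and the differences were not tested because each fraction is 1 array. Rpl4 had a log2 ratio of -0.38 in heavy polysomes, against 0.81 in the top fraction and 0.25 in light polysomes. Rpl3 had -0.25 in heavy, against 0.60 in top and 0.36 in light. Rpl36 had -0.31 in light, against 0.32 in top, and 0.30 in heavy. Rpl22 had 0.35 in heavy, against -0.21 in light, and its 2 probes lay 0.63 apart in heavy.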

How the results depend on the processing

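No paired analysis was possible because each fraction is 1 array without replicates. With the scanner software's ratio, and likewise with the deposited value table, the members' median was 0.35 in the top fraction and -0.32 for light minus top, with 0 members past 2-fold in each, and 1 for heavy minus top. Without loess the median was 0.53 in light polysomes, -0.064 for light minus top and -0.24 for heavy minus light, which reverses the sign. Members past 2-fold without loess numbered 3 in top, 1 for heavy minus top, 2 for heavy minus light and 0 for light minus top, and the median of all genes moved to 0.13 for light minus top. With an offset of 0 they numbered 1 in top, 1 for heavy minus top and 1 for light minus top. Over members with 2 or more probes, chosen after seeing the data, heavy minus top had a median of -0.065. In the control channel, 75th percentile scaling gave medians of -1.10 for heavy over top and -0.35 for heavy over light, with 28 members past 2-fold for heavy over top and 19 for light over top. All-gene medians with this scaling were 0.09, -0.15 and 0.29 for heavy over top, heavy over light and light over top. The software's processed signal gave -2.40, -0.35 and -2.03 for heavy over top, heavy over light and light over top, with 42, 5 and 41 past 2-fold, and all-gene medians of -0.39, -0.06 and -0.20. Shares of all genes past 2-fold were not computed under these alternatives, so the member counts have no background here. The cause of these shifts was not tested. The other 116 of 147 medians and counts kept their sign and stayed within the spread between probes, or within 1.5 times for counts. In the members' own ratios, 298 of 2274 alternative values moved by more than the spot error. The top array had the fewest measured probes.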
